A study of Rattus norvegicus with 12 samples.

Results

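The genes described here encode precursors of neurokinin B and dynorphin, peptides of the KNDy neurons of the ARC, and of tachykinins made by neighbouring neurons. Also included are tachykinin receptors and the receptors for oestrogen and progesterone. The genes are Tac3, Pdyn, Tacr3, Tac1, Tacr1, Esr1 and Pgr, 7 of the 14217 genes named on the arrays. A probe set, a group of short probes against 1 transcript, was included if the platform annotation gave it exactly 1 gene symbol and that symbol was one of the 7. This found 9 probe sets of 31042, with a pair each for Pdyn and Tacr1, and the probe set with the higher mean over the arrays was taken as the main one of its gene.

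The arrays measured ARC tissue that was cut by laser from stained frozen brain sections of male Wistar rats, 3 months old, 1 animal per array. The 6 recuperated rats were born to mothers on 8% dietary protein, a restricted level, and were nursed by control dams from postnatal day 3, in litters culled to fewer, all-male pups. The 6 control rats were offspring of control dams, and both groups ate standard chow until 3 months of age. RNA was amplified and hybridised to Affymetrix rat genome arrays, and a value is the log2 signal of a probe set after RMA, a method that removes background and puts all arrays on 1 scale. The study asked how a low-protein pregnancy, followed by generous nursing in small litters, changes gene expression in the adult ARC. In tissue of many cells, fewer cells of a type and less RNA per cell cannot be told apart.

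KNDy neurons are named for kisspeptin, neurokinin B and dynorphin, which they make together. They drive the pulses of gonadotropin-releasing hormone on which reproduction depends: neurokinin B excites neighbouring KNDy neurons through its receptor, and dynorphin ends each pulse through the kappa opioid receptor. Most of these cells carry receptors for the gonadal steroids, through which testosterone and oestrogen restrain the axis. Several of the genes are not confined to the ARC, and Pdyn, Tac1, Esr1 and Pgr are also expressed in the ventromedial nucleus (VMN), which borders it.

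Recuperated array 4 stood apart from the other 11 and is treated separately throughout. The ARC was checked with 13 measured genes of a list of 15 ARC markers, whose mean lay 0.45 above the array median (log2) on recuperated array 4 and between 1.94 and 2.34 above it on the others. There the orexigenic peptide gene Npy read 7.19 against 10.60 to 11.75 on the others, and Th, the dopamine synthesis enzyme, 6.84 against 9.67 to 10.10, although both stayed above the array median on all 12 arrays. The mean of 9 measured VMN markers was 2.73 above the array median on recuperated array 4 and 0.37 to 1.48 on the others, and that of 9 tanycyte and ependymal markers was 0.09 against 1.01 to 1.66. Marker means there also lay outside the range of the others for neurons (5.21 against 4.33 to 4.64), oligodendrocytes (3.92 against 3.28 to 3.69) and microglia (0.31 against 0.71 to 1.23). Those for pituitary (-2.03 against -1.82 to -0.27) and astrocytes (4.43 against 4.46 to 4.71) lay outside it narrowly, for the width of the range. Recuperated array 4 held the highest or the lowest value of 27.0% of all probe sets, against 10.3% to 23.9% for the other arrays. For actin, the 3' probe set exceeded the 5' one, a gap that widens in broken RNA, by 1.96 (log2) on that array and by 1.04 to 1.90 on the others, whereas the same gap lay within the range of the others for GAPDH (1.84 against 1.49 to 2.63) and hexokinase (0.50 against -0.45 to 0.57). The difference of each member below is therefore also given without that array.

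None of the 7 genes differed between recuperated and control animals by more than the spread between arrays. A probe set was called where it passed 1.3-fold with limma P under 0.05, and 0 of the 9 probe sets did so, against 2.47% of all 31042 probe sets (1.2% higher and 1.27% lower in recuperated animals). Without recuperated array 4 the count was again 0 of 9, against 2.8% of all. The smallest unadjusted limma P among them was 0.169, for Pgr, 0 of the 9 were called by the methods' t-test, against 1.63% of all, and every adjusted p was 0.999 (limma, Benjamini-Hochberg over 31042). Over all probe sets the adjusted count was also 0, with 1071 at an unadjusted limma P under 0.05 and 1063 by the methods' t-test, of which 0 passed after adjustment. Of the main probe sets, those of Tac3, Esr1, Tacr1 and Tacr3 had negative log2 fold changes, and those of Pgr, Tac1 and Pdyn positive ones. Their median was -0.15, against -0.03 over all probe sets. Sample values below are as deposited, whereas log2 fold changes (recuperated minus control) are from limma after subtraction of each array's median. Probe sets bind with different strength, so levels are compared between arrays and never between genes.

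Tac3 (1387138_at) encodes the precursor of neurokinin B, the peptide that starts each KNDy pulse. Its log2 values were 9.93, 9.57, 9.95, 5.76, 9.60 and 9.31 in recuperated animals 1 to 6, against 9.90, 9.89, 9.57, 10.04, 9.50 and 9.69 in control animals 1 to 6. Recuperated 4 alone was far below all other animals, 1 other recuperated animal was slightly below the control range, and the remaining 4 lay within it. The means were 9.02 ± 1.62 in recuperated and 9.77 ± 0.21 in control animals (SD, n = 6 each), a log2 fold change of -0.77 with a standard error of 0.57 and a 95% interval of -1.99 to 0.46 (exact permutation test, p = 0.238). Without recuperated array 4 the recuperated mean was 9.67 ± 0.27 (SD, n = 5), and the log2 fold change was -0.11, with an interval of -0.45 to 0.23 (exact permutation test, p = 0.472). Most of the pooled Tac3 difference thus rested on 1 array. The pooled SD within groups was 1.16, against a median of 0.25 for probe sets of like level.

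Pdyn encodes prodynorphin, the precursor of the inhibitory KNDy peptide. Its main probe set (1383294_at) ran from 10.92 to 11.55, with a median of 11.16, in recuperated animals and from 10.90 to 11.17, with a median of 11.07, in control animals. Recuperated animals 4, 2 and 1, from the highest down, exceeded all controls, and the other 3 lay within the control range. The log2 fold change was 0.10 with a standard error of 0.12 and an interval of -0.15 to 0.36 (exact permutation test, p = 0.301). Without recuperated array 4 it was 0.03, with an interval of -0.20 to 0.27 (exact permutation test, p = 0.600), the narrowest interval among the 9 probe sets. The second probe set (1369882_at) ran from 8.67 to 10.09, with a median of 8.98, in recuperated animals and from 8.43 to 9.81, with a median of 8.93, in control animals. It too was highest on recuperated array 4, and its log2 fold change of 0.15 (interval -0.44 to 0.74) became -0.03 without that array. Across arrays the probe sets of Pdyn had a Pearson r of 0.52 (n = 12) and of 0.10 without recuperated array 4 (n = 11).

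The promoter sequences of Pdyn, Tac1 and Esr1 are shown because these genes, like Tac3, took an extreme value on recuperated array 4. Each is the 250 bases before the gene's start, 5' to 3' on the gene's strand, from RefSeq on the GRCr8 build, where 6 of the 7 genes had an entry. Motifs were searched as exact letters on both strands, except the TATA box, which was searched on the gene's own strand alone. Capitals mark a match: TATAAA, the TATA box, CACGTG, the E-box, TGACG, the cyclic AMP response element half-site, which reads CGTCA where it lies on the other strand, and GGTCA, the oestrogen response element half-site.
Pdyn, chr3:137366504-137366753, minus strand: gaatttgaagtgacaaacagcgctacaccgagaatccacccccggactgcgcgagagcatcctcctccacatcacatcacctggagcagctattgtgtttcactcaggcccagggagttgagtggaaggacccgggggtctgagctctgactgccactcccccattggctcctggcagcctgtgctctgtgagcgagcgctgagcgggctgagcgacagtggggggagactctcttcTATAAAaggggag
Tac1, chr4:36645333-36645582, plus strand: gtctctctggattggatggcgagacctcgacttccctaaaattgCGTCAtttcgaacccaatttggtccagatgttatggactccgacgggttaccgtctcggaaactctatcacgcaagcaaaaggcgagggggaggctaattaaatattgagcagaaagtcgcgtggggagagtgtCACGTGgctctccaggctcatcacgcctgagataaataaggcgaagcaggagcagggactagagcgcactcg
Esr1, chr1:43641845-43642094, plus strand: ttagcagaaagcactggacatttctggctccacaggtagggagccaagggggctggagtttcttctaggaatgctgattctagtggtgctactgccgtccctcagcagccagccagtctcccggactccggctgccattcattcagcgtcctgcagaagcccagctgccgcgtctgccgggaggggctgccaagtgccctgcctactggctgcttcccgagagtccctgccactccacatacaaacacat
In the Pdyn promoter the single match was TATAAA, 13 to 8 bases before the start, a motif found in 8.06% of all 33469 rat promoters of this length. The Tac1 promoter held CGTCA 206 to 202 bases before the start (18.2% of promoters have the half-site) and CACGTG 72 to 67 bases before it (5.59%). That of Esr1 held none of the motifs. GGTCA, found in 35.4% of promoters, was present for Tacr1 alone among the 6 genes, and neither the full oestrogen response element GGTCANNNTGACC (0.0239%) nor TGTTCT, the half-site for the progesterone and glucocorticoid receptors (17.5%), was matched in any of the 6. A match is a description of the letters in this window.

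**Figure D1:**
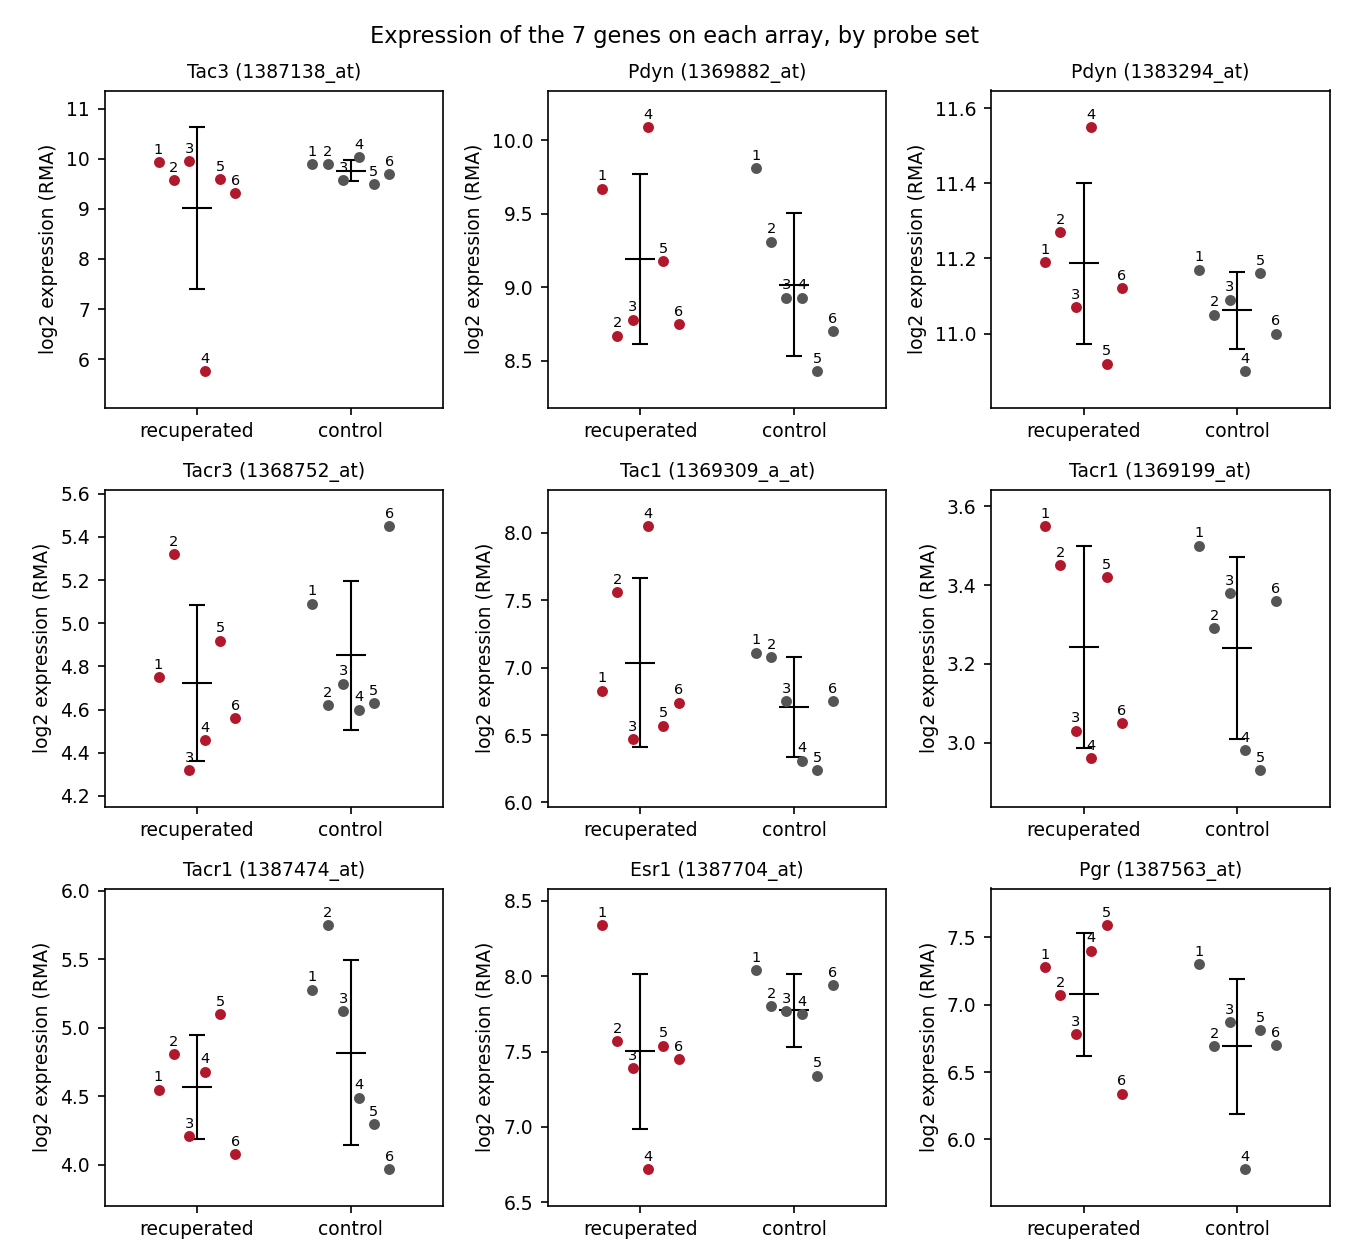
Log2 expression (RMA) of each of the 9 probe sets on every array, with recuperated animals on the left and control animals on the right, numbered by animal. Bars are the mean and SD of 6 arrays, and axes differ between panels. Recuperated 4 is the lowest point for Tac3 (5.76) and Esr1 (6.72) and the highest for Tac1 (8.05) and both Pdyn probe sets.

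Tac1 encodes the precursor of substance P and neurokinin A, tachykinins made by neurons neighbouring the KNDy cells. Its probe set (1369309_a_at) read 6.83, 7.56, 6.47, 8.05, 6.57 and 6.74 in recuperated animals 1 to 6, against 7.11, 7.08, 6.75, 6.31, 6.24 and 6.75 in control animals 1 to 6. Recuperated animals 4 and 2 exceeded all controls, and the other 4 lay within the control range. The log2 fold change was 0.31 with a standard error of 0.26 and an interval of -0.25 to 0.87 (exact permutation test, p = 0.327), and without recuperated array 4 it was 0.11, with an interval of -0.36 to 0.58.

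The tachykinin receptors gave dim signals, below the median of their array on all 12 arrays. Tacr3 (1368752_at), the receptor through which neurokinin B acts, read 4.75, 5.32, 4.32, 4.46, 4.92 and 4.56 in recuperated animals 1 to 6, against 5.09, 4.62, 4.72, 4.60, 4.63 and 5.45 in control animals 1 to 6. The 3 lowest values were of recuperated animals, but the other 3 recuperated values lay within the control range. Its log2 fold change was -0.15 with a standard error of 0.20 and an interval of -0.57 to 0.27 (exact permutation test, p = 0.496), and without recuperated array 4 it was -0.10, with an interval of -0.54 to 0.35. Tacr1, the receptor for substance P, ranged in its main probe set (1387474_at) from 4.08 to 5.10, with a median of 4.62, in recuperated animals and from 3.97 to 5.75, with a median of 4.80, in control animals. All 6 recuperated values lay within the control range, and the log2 fold change was -0.27 with an interval of -0.87 to 0.33 (exact permutation test, p = 0.424), against -0.29, with an interval of -0.94 to 0.37, without recuperated array 4. The second Tacr1 probe set (1369199_at) ran from 2.96 to 3.55 in recuperated animals and from 2.93 to 3.50 in control animals, with a log2 fold change of -0.02 and an interval of -0.35 to 0.31. Its sign was not stable, since it was 0.042 (interval -0.29 to 0.38) without recuperated array 4, 0.018 after quantile normalization and 0.0033 with no subtraction of medians. The Pearson r between the Tacr1 probe sets was 0.46 (n = 12).

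Esr1 (1387704_at) encodes oestrogen receptor alpha, through which oestrogen, also formed in the brain from testosterone, restrains the KNDy neurons. Its values were 8.34, 7.57, 7.39, 6.72, 7.54 and 7.45 in recuperated animals 1 to 6, against 8.04, 7.80, 7.77, 7.75, 7.34 and 7.94 in control animals 1 to 6. Recuperated animals held both the highest value, in animal 1, and the lowest, in animal 4, and the other 4 lay within the control range. The means were 7.50 ± 0.52 in recuperated and 7.77 ± 0.24 in control animals (SD, n = 6 each), a log2 fold change of -0.29 with a standard error of 0.22 and an interval of -0.76 to 0.18 (exact permutation test, p = 0.260). Without recuperated array 4 it was -0.13, with an interval of -0.54 to 0.27, whereas without recuperated array 1 it was -0.46 and passed the threshold of a call (limma, adjusted p = 0.954).

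Pgr (1387563_at) encodes the progesterone receptor, a gene that oestrogen induces in the hypothalamus. It read 7.28, 7.07, 6.78, 7.40, 7.59 and 6.34 in recuperated animals 1 to 6, against 7.30, 6.69, 6.87, 5.78, 6.81 and 6.70 in control animals 1 to 6. Recuperated animals 4 and 5 exceeded all controls, control 4 was the lowest of all animals, and 4 recuperated values lay within the control range. The means were 7.08 ± 0.46 in recuperated and 6.69 ± 0.50 in control animals (SD, n = 6 each), a log2 fold change of 0.36 with a standard error of 0.25 and an interval of -0.17 to 0.90 (exact permutation test, p = 0.225). Without recuperated array 4 it was 0.30, with an interval of -0.27 to 0.88, and without recuperated array 6 it was 0.51 and passed the threshold of a call (limma, adjusted p = 1.00).

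**Figure D2:**
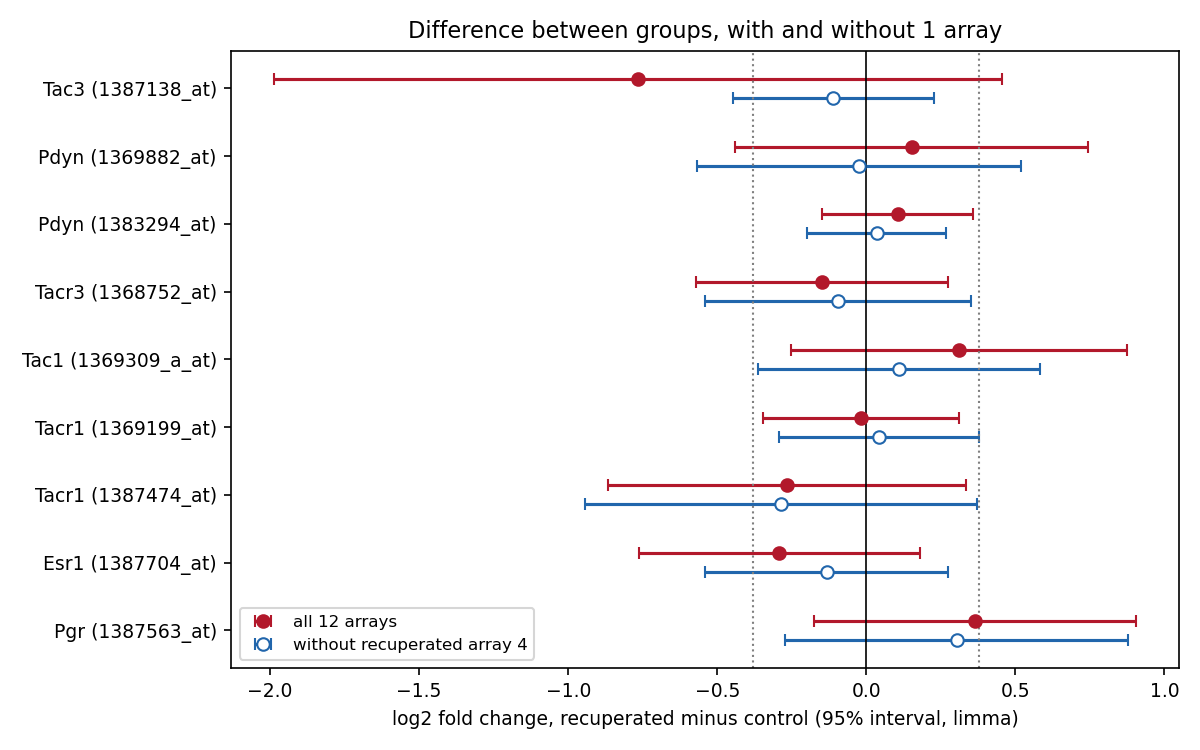
Log2 fold change of each probe set, recuperated minus control, with its 95% interval from limma, for all 12 arrays (filled) and without recuperated array 4 (open). Dotted lines mark 1.3-fold in either direction. Every interval includes 0, and that of Tac3 runs from -1.99 to 0.46 with all arrays and from -0.45 to 0.23 without recuperated array 4.

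Recuperated array 4 held the lowest value of 2 and the highest of 3 of the 9 probe sets. Tac3 was 3.99 below the mean of the other 11 arrays there, which ranked 5th lowest among the 31042 probe sets, where the SD of those 11 arrays was 0.24. On the same array Esr1 was lower by 1.02 and Tac1 higher by 1.26, while Pdyn was higher by 0.44 in its main and by 1.05 in its second probe set. Tacr3 was lower by 0.38 and the main Tacr1 probe set by 0.04, whereas Pgr was higher by 0.54. Of the 13 ARC markers, 10 were at their lowest on that array, and of the 9 VMN markers 8 were at their highest. Nr5a1, a transcription factor of VMN neurons, read 8.88 there and 3.36 to 5.97 on the others, and the PACAP precursor Adcyap1 read 10.24 against 6.37 to 8.58. Of genes with roles near the KNDy neurons, the transcription factors Tbx3 and Nr5a2 were at 7.18 against 10.02 to 10.33 and at 3.04 against 6.24 to 7.15. The part of these marker differences in the members' values was not tested.

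**Figure D3:**
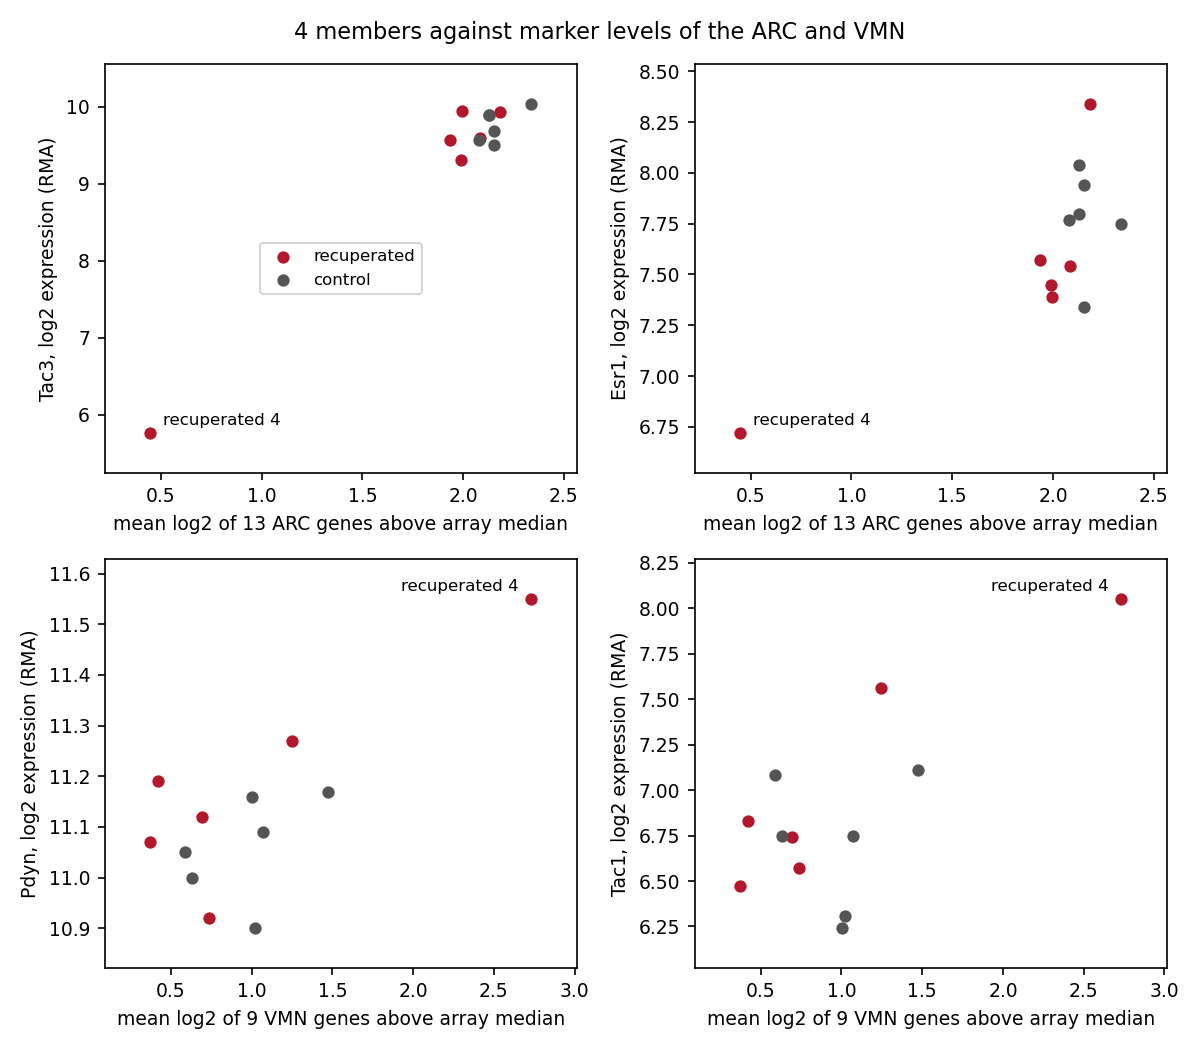
Tac3 and Esr1 against the mean of 13 ARC markers (top) and the main probe set of Pdyn and Tac1 against the mean of 9 VMN markers (bottom), 1 point per array, with marker means as log2 above the array median. Recuperated array 4 lies apart in each panel, at 0.45 for the ARC markers and 2.73 for the VMN markers.

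Across the 12 arrays, 21 pairs of main probe sets were compared, and 2 correlations passed after adjustment over the 21. Pdyn and Tac1 had a Pearson r of 0.81 (permutation test, p = 0.00239, adjusted p = 0.0339) and a Spearman rho of 0.66 (permutation test, p = 0.0214, adjusted p = 0.278). Tac3 and Esr1 had a Pearson r of 0.76 (permutation test, p = 0.00323, adjusted p = 0.0339) and a Spearman rho of 0.59 (permutation test, p = 0.0451, adjusted p = 0.316). With the 2 arrays farthest from the median of the first gene left out, r was 0.46 for Pdyn and Tac1 and 0.47 for Tac3 and Esr1. Both relations were weaker without recuperated array 4. Pdyn and Tac1 then had an r of 0.58 (permutation test, p = 0.0637, adjusted p = 0.574). Tac3 and Esr1 had an r of 0.55 (permutation test, p = 0.0820, adjusted p = 0.574), and 0 of 21 pairs passed. Tac3 and Pdyn, which the KNDy neurons make together, had an r of -0.82 over all arrays (permutation test, adjusted p = 0.126) and of -0.27 without recuperated array 4.

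The genes whose pattern across arrays was most like each member were sought among 8983 genes, by Pearson r, which is given as a description. For Tac3 these were Tbx3, Npy and Gpx1, each at 0.98 over 12 arrays, and over the 11 arrays without recuperated array 4 they were Sh3bgrl3 (0.92), Ctxn1 (0.92) and Ndufs8 (0.91). Npy and Tbx3 were thus among the most alike only with the array on which they and Tac3 were low. For Pdyn, Dapk1 led with all arrays (0.96) and without recuperated array 4 (0.90), followed by Unc5c and Atp6ap2 with all arrays (0.92 each) and by Pex7 (0.87) and Riox1 (0.86) without it. Tac1 was most like Pfn2 (0.92), Phf2 (0.89) and Cited2 (0.88), and without that array Tsg101 (0.91), Pfn2 (0.85) and Fv1 (0.84). Esr1 was most like C1qb, a microglial marker (0.91), Fis1 (0.91) and Cdc42 (0.90), and without that array Septin9, Rae1 and Fis1 (0.90 each). The leading gene stayed the same for the remaining members, namely Dgke for Pgr (0.90, and 0.89 without that array), Tmem198 for Tacr3 (0.90 both ways) and Fam204a for Tacr1 (0.83, and 0.85 without it). Behind them came Pus3 (0.87) and Rabgap1 (0.84) for Pgr, Acbd3 (0.84) and Trpv5 (0.80) for Tacr3, and Cbfb (0.79) and Dnaja3 (0.77) for Tacr1 over all arrays. With 11 or 12 arrays, high values of r arise among so many genes.

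In 5 lists of related genes, 56 of 65 were measured, and 3 of them were called, 1 higher and 2 lower in recuperated animals (5.36%, against 2.47% of all probe sets). These shares are not over like units, since the first takes the main probe set of each gene. The second takes every probe set, also those with no symbol. After adjustment 0 of the 56 passed (limma, adjusted p = 0.999 for each of the 3), and without recuperated array 4 the calls were 1 higher and 1 lower. Kiss1, the kisspeptin gene, had no probe set with that symbol alone and was not analysed here. The list of the KNDy and reproductive axis had 11 of 15 genes measured, 0 higher and 2 lower calls, and a median log2 fold change of -0.26, which was -0.18 without recuperated array 4. The lower calls were Prlr and Gnrh1.

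Prlr encodes the prolactin receptor, through which prolactin acts on ARC dopamine and KNDy neurons. Its main probe set (1370789_a_at) read 7.53, 7.72, 6.99, 7.09, 7.34 and 7.37 in recuperated animals 1 to 6, against 7.49, 7.81, 7.82, 8.01, 7.54 and 8.10 in control animals 1 to 6. Of the recuperated animals 4 lay below all controls and 2 within the control range. The log2 fold change was -0.47 with a standard error of 0.16 (limma P = 0.00921, exact permutation test, p = 0.0173), and -0.42 without recuperated array 4. A second, dimmer Prlr probe set (1370384_a_at), above the array median on 1 of 12 arrays, ran from 4.92 to 5.74 in recuperated animals and from 5.86 to 6.35 in control animals. Its log2 fold change was -0.56 (limma P = 0.00202, adjusted p = 0.999, exact permutation test, p = 0.00216, the smallest it can give). The permutation p was not adjusted for the number of probe sets. The third (1369493_at) had a log2 fold change of -0.21 (exact permutation test, p = 0.232). Prlr is also 1 of the ARC markers, and its call was kept whichever array was left out. It is named here because it was called, and those fits share most arrays with the fit that gave the call.

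Gnrh1, the gonadotropin-releasing hormone precursor, had a log2 fold change of -0.56 with a standard error of 0.25 in its main probe set (limma P = 0.0374, exact permutation test, p = 0.0779). Its signal was below the array median on all 12 arrays, its other probe set differed by -0.06, and the call was lost without recuperated array 1, 4, 5 or 6 or control array 1, 4 or 5. The size changed less than the call, at -0.52 without recuperated array 4 and between -0.71 and -0.42 over all arrays left out. Oprk1, the kappa opioid receptor through which dynorphin acts, averaged 5.76 ± 0.54 in recuperated and 5.89 ± 0.47 in control animals (SD, n = 6 each; log2 fold change -0.15, exact permutation test, p = 0.632, and -0.23 without recuperated array 4). The neurokinin A receptor gene Tacr2 had a log2 fold change of -0.26 (exact permutation test, p = 0.0628), and of -0.20 without that array.

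Among the other steroid receptors and steroid enzymes, 14 of 16 genes were measured and 0 were called, with a median log2 fold change of -0.07, which was -0.03 without recuperated array 4. Esr2, oestrogen receptor beta, averaged 4.20 ± 0.33 in recuperated and 4.31 ± 0.18 in control animals (SD, n = 6 each) and was below the array median on all 12 arrays (log2 fold change -0.13, exact permutation test, p = 0.439, and -0.15 without that array). The smallest P values were of Gper1, the membrane oestrogen receptor (-0.27), Esrrg, an orphan receptor related to the oestrogen receptors (0.46), and Hsd17b12, a hydroxysteroid dehydrogenase (-0.17, all log2 fold changes). Hsd17b12 was at -0.08 without recuperated array 4, and Esrrg reached 0.69 and was called without recuperated array 3. Of the steroid receptor coregulators, 14 of 16 were measured, with 1 higher call, 0 lower calls and a median of 0.06. Recuperated array 4 held the highest value of 7 of the 14, and without it the median turned to -0.01. The call was Med1, a subunit of the Mediator complex that binds nuclear receptors, with a log2 fold change of 0.58 (0.51 without that array). Its other probe sets gave 0.18 (0.09 without that array) and -0.30 (-0.48 without it). The last of these (1384962_at) met the definition of a call without that array, but lower in recuperated animals. Med1 was not called as the mean of its probe sets. The coactivator Ncoa2 (-0.26) and the receptor chaperone Fkbp5 (-0.19) came next and did not pass.

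The enzymes and granins that turn propeptides such as prodynorphin into active peptides gave 0 calls among 12 of 13 genes measured, with a median log2 fold change of -0.01, and of -0.04 without recuperated array 4. Prcp, a carboxypeptidase, had the smallest P (log2 fold change -0.36, exact permutation test, p = 0.108), followed by the endothelin-converting enzyme Ece1 (-0.21) and the prolyl endopeptidase Prep (0.16). Prcp was called without recuperated array 1, at -0.55, and as the mean of its probe sets, at -0.45, and Ece1 was at -0.07 without recuperated array 4. All 5 other opioid genes were measured and 0 were called, with a median of -0.16, and of -0.12 without recuperated array 4. These included the delta opioid receptor Oprd1 (-0.19), the nociceptin precursor Pnoc (-0.42) and the nociceptin receptor Oprl1 (0.25). Without that array Pnoc was at -0.18 and Oprl1 at 0.07.

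**Figure D4:**
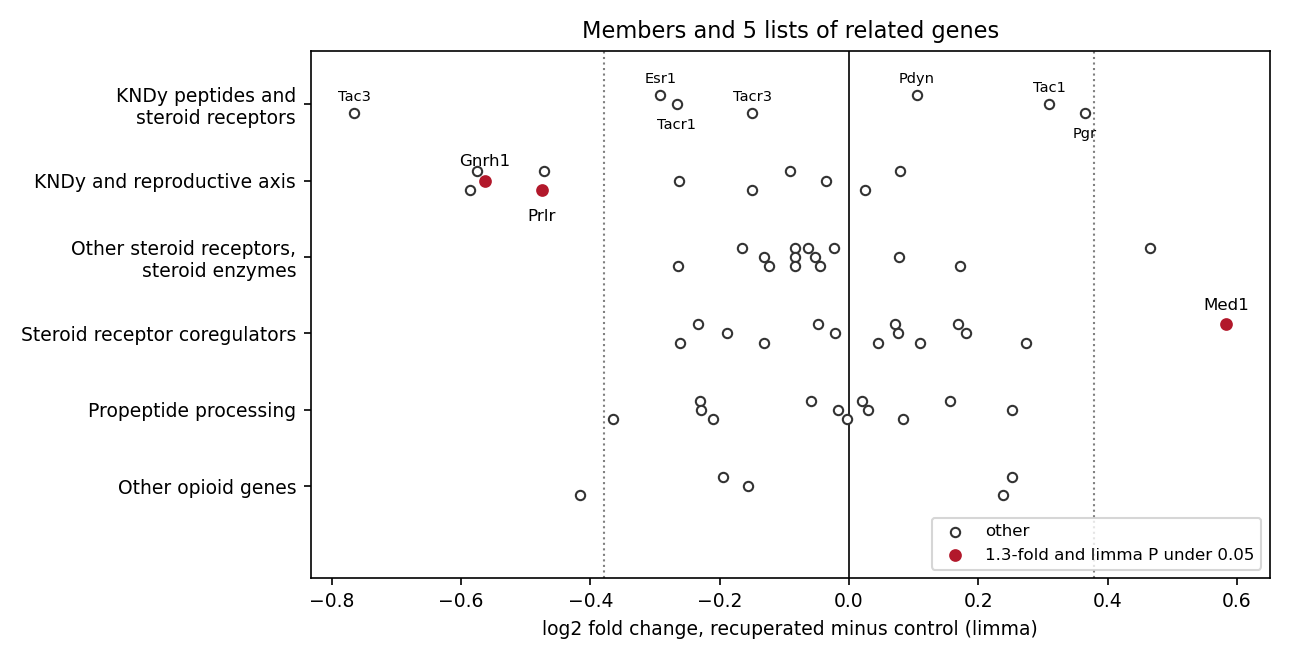
Log2 fold change of the main probe set of each gene, recuperated minus control, for the 7 members (top row) and 5 lists of related genes, with filled points for the 3 genes called and dotted lines at 1.3-fold. The called genes are Gnrh1 (-0.56), Prlr (-0.47) and Med1 (0.58), and no member is filled.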

How the data were processed

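The deposited data are log2 values of 31099 probe sets on 12 arrays, which the authors made with RMA. Software is named as Affymetrix Expression Console in the submitters' processing notes and as GeneSpring in the paper's methods, and versions for the deposited table are not given in the sources used here. Replicates were not pooled, and the arrays came with no named genome build.

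Control probe sets of Affymetrix (57) were left out of the fit, and each array's median (6.21 to 6.30) was subtracted. The R package limma 3.58.1 (functions lmFit and eBayes, R 4.3.3) compared the groups over 31042 probe sets without covariates, and p-values were adjusted by Benjamini-Hochberg. The fit was tested on simulated data, with 50 probe sets changed by each of 4 sizes. At an adjusted p under 0.05 (limma), it recovered 4 of 50 changes of 0.5 (log2) and 35 of 50 of 1. It recovered 49 of 50 changes of 2 and 50 of 50 of 3, with 5 false calls. Changes of 0.5 were thus mostly missed after adjustment. A call means 1.3-fold with limma P under 0.05. The t-test named in the methods, two-sided with equal variance, was run as an alternative and is called the methods' t-test. For single probe sets, the same values entered an exact permutation test (two-sided, 924 arrangements), which cannot go below p = 0.00216. Correlations used 100000 permutations. P-values of the group comparisons weigh a difference against the spread between arrays, 1 animal each, whose number limits the precision. Tables were made in Python 3.11.15 (pandas 2.3.3, numpy 2.4.6, scipy 1.17.1) and plots in matplotlib 3.10.9.

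Of the probe sets, 20826 had 1 symbol, 436 several and 9780 none. The members, lists and tests were chosen with earlier results of these data known. Named were all member probe sets, every called gene of the related lists and otherwise the 3 with the smallest p of each, the 3 genes most like each member, and Npy, Th, Cartpt, Nr5a1, Adcyap1, Vim, Kiss1, Esr2 and Oprk1. Tbx3 and Nr5a2 as list members, and Cga, Tshb and Npvf, were named once their values had been seen. Alternatives tried were the methods' t-test, no subtraction of medians, quantile normalization, array weights, a filter on dim probe sets, a replicate block, each array left out, linear means, the mean of a gene's probe sets and group-centred correlations.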

Additional observations from a re-analysis of the deposited data

Results flagged for a closer look

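Of 40 tests for a sample far from the rest of its group of 6, 6 stood out, all on recuperated array 4. Chance would mark about 1 group in 20 if the tests were independent and the genes not chosen with the data in view. Here the tests share the same arrays, and the lists and tests were chosen with earlier results known. The count is thus a description. Tac3 was at 5.76 on recuperated array 4 against 9.31 to 9.95 on the other recuperated arrays. That gap was 0.847 of the whole range, where 0.625 is the critical value. It was 1 of the 9 member probe sets to stand out. The others were markers. Of the ARC markers, Npy was at 7.19 against 10.60 to 11.75, Th at 6.84 against 9.67 to 10.10, and Cartpt, the precursor of a satiety peptide, at 11.13 against 12.79 to 12.99. The VMN marker Adcyap1 was at 10.24 against 6.77 to 7.56, and the tanycyte marker Vim was at 7.94 against 10.35 to 11.07.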

How the results depend on the processing

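No member probe set was called in the alternatives run with all 12 arrays, and leaving out 1 array at a time gave 0 to 1 calls, Esr1 without recuperated array 1 (log2 fold change -0.46) and Pgr without recuperated array 6 (0.51). The main probe sets kept their sign in every alternative that gave a value. Left out one at a time, the arrays gave ranges of -0.95 to -0.11 for Tac3, 0.03 to 0.15 for Pdyn, 0.11 to 0.42 for Tac1, -0.26 to -0.02 for Tacr3, -0.43 to -0.08 for Tacr1, -0.46 to -0.13 for Esr1 and 0.18 to 0.51 for Pgr. Array weights gave values outside these ranges for Pgr (0.13) and the main Tacr1 probe set (-0.49). As means of linear values, the Tac3 log2 fold change was -0.35. The sign turned for the second Pdyn probe set with array weights (-0.12) and without recuperated array 4, with a range of -0.026 to 0.31 over the arrays left out. It also turned for the second Tacr1 probe set with no subtraction of medians (0.0033), with quantile normalization (0.018) and for several arrays left out (-0.083 to 0.042). The cause was not tested.

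Over all probe sets, 371 were called higher and 395 lower in recuperated animals. The filter on dim probe sets, which drops Tacr3 and both Tacr1 probe sets, left 118 higher and 150 lower, and the methods' t-test gave 243 higher and 263 lower. The split was 434 higher and 302 lower with no subtraction of medians, and 447 higher and 313 lower with quantile normalization. Leaving out 1 array gave 342 to 476 higher and 352 to 622 lower, and 0 to 1 at an adjusted p under 0.05. No pairing by animal number was seen, as same-numbered arrays correlated at -0.16 to 0.08 in their deviations. A pairing confined to few probe sets might not show in these correlations. A replicate block gave 452 higher and 411 lower with 0 members called. The related lists had 2 to 4 calls with 1 array left out, where calls were gained by Prcp without recuperated array 1, Esrrg without recuperated array 3 and Npvf without control array 6 (-0.60), and 2 with the mean of a gene's probe sets. Pairs of members that passed numbered 0 without recuperated array 4 and 1 with deviations from group means, which was Pdyn and Tac1.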

Other observations

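Of 8 measured pituitary markers, Cga and Tshb, picked after their values were seen, spread widely within both groups, and the other 6 had SDs of 0.09 to 0.43 within groups. Cga, the common subunit of the glycoprotein hormones, read 4.59 to 9.44 in recuperated and 4.18 to 10.54 in control animals, and Tshb, the thyrotropin subunit, 4.61 to 8.70 in recuperated and 4.97 to 9.94 in control animals. Both were lower than the array median on 3 of 12 arrays, and recuperated array 4 was the lowest of its group for each.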
